A study of Mus musculus with 167 samples.

Results

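The livers of 2 month old heterozygous Q92 mice were compared with those of Q20 and wild-type (WT) mice of the same age, to ask whether an expanded Htt CAG repeat is accompanied by altered microRNA levels in a peripheral tissue of young animals. Libraries were chosen by their labels alone. They comprised 8 Q92 livers and 16 control livers (8 Q20 and 8 WT), 24 of the 167 in the series, and each group held 4 females and 4 males. Q92 and Q20 mice carry 1 normal Htt allele and 1 knock-in allele in which human HTT exon 1, with a repeat of the named nominal length, replaces mouse sequence. WT mice carry 2 normal alleles, were littermates of the Q20 mice and are labelled as housed with them, whereas Q92 mice were bred as a line of their own and are labelled as housed with Q92 heterozygotes. Per the methods, cages held heterozygous and WT mice together. All groups are labelled C57BL/6, and per the methods heterozygous males of each line were mated to C57BL/6J females. Line, cage and repeat length therefore cannot be told apart in this comparison. The tables hold microRNA precursors only, so Htt itself, and with it the genotype label, was not measured here.

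A microRNA gene is transcribed as a long RNA, cut in the nucleus to a hairpin precursor and in the cytoplasm to a mature strand of about the length of the sequences below. The mature strand guides the silencing complex to messenger RNAs that pair with its seed, the bases 2 to 8, so microRNAs with the same seed share most of their predicted targets. In liver, hepatocytes are dominated by a few very abundant microRNAs, while others mark blood, vessels, stroma and bile ducts. Genes for miR-10 lie inside the Hox clusters, which pattern the body axis, and are expressed along with them.

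A single precursor out of 316 tested (1 call) differed between Q92 and control livers. Mir10b, which lies within the HoxD cluster, was lower in Q92 livers, at 0.41 times the control level (95% interval 0.278 to 0.604). Its close relative Mir10a did not pass the test, nor did any hepatocyte, metabolic or blood cell microRNA. With 1 call among 316 precursors, 0 calls in such short lists says little about their members. The count of 1 call depended on the control set, on the scaling, on several single livers and on further settings of the fit. Taking Q20 or WT alone as the control set also meant fewer control livers.

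The mature sequences that matter for this comparison are given 5′ to 3′ with the seed in capitals, from RefSeq on GRCm38.p6. The miR-10 and miR-100 family is shown first because it holds the only called precursor and because its members are so alike that reads must be told apart by single bases.
miR-10b-5p (chr2:74726074-74726096, plus strand): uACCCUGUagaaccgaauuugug
miR-10a-5p (chr11:96317186-96317208, plus strand): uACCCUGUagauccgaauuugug
miR-99a-5p (chr16:77598940-77598961, plus strand): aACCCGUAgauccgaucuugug
miR-99b-5p (chr17:17830194-17830215, plus strand): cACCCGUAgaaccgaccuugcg
miR-100-5p (chr9:41531437-41531458, plus strand): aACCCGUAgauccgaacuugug
Counted from 1 at the 5′ end, miR-10a-5p and miR-10b-5p share the seed and differ by 1 base in 23, U12A from miR-10a-5p to miR-10b-5p. The other 3 members have another seed, and miR-99a-5p differs from miR-100-5p by U16A alone. The Mir10b hairpin is 68 bases long and is printed with its 2 mature arms in capitals.
Mir10b hairpin (chr2:74726070-74726137, plus strand): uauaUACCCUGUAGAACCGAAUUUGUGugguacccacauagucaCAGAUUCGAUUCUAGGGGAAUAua

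The next sequences are shown because 2 members of each set had an unadjusted p under 0.05 in the comparison, or because an identical mature strand is made from a further gene. That of miR-101a-3p is added because Mir101a had the second smallest p.
miR-30a-5p (chr1:23272274-23272295, plus strand): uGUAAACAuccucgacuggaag
miR-30e-5p (chr4:120772660-120772681, minus strand): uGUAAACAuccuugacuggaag
miR-30c-5p (chr1:23291714-23291736, plus strand, and chr4:120769584-120769606, minus strand): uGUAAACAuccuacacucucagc
miR-130a-3p (chr2:84741116-84741137, minus strand): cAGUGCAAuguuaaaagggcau
miR-301a-3p (chr11:87113054-87113076, plus strand): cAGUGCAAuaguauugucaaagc
miR-130b-3p (chr16:17124071-17124092, minus strand): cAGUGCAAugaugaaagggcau
miR-101a-3p (chr4:101346957-101346977, minus strand): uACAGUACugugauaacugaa
miR-7a-5p (chr13:58392841-58392863, minus strand, and chr7:78888295-78888317, plus strand): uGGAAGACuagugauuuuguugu
miR-128-3p (chr1:128202404-128202424, plus strand, and chr9:112118644-112118664, minus strand): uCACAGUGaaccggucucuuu
Over the 22 bases of miR-30a-5p and miR-30e-5p the only difference is C13U. The strands of miR-7a-5p, miR-128-3p and miR-30c-5p are each made from 2 genes, so reads of the mature strand cannot be assigned to either gene and the values of Mir7-1 and Mir128-1 below are uncertain in that respect.

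The deposited values are estimated counts per precursor. Library totals averaged 3.36 ± 0.618 M counts (SD, n = 24, M for mega) and ran from 1.69 to 4.62 M. The average was 3.20 ± 0.552 M in Q92, 3.57 ± 0.388 M in Q20 and 3.30 ± 0.847 M in WT livers (SD, n = 8 each). Levels are given as counts per M counts (CPM), and log2 differences are Q92 minus controls from a fit with sex and sequencing lane. Of 1626 precursors, 316 reached 10 counts in at least 7 of the 56 livers of this age and were tested. By lane, 1, 4 and 3 of the Q92 livers and 1, 4 and 3 of the Q20 livers were in L3, L4 and L5, and WT livers were in L3 (2) and L4 (6) only. Within groups, none of the 84 pairs of libraries agreed within sampling noise, so each library counted as 1 replicate. The study's design gives each library an animal of its own.

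Under edgeR's quasi-likelihood F-test (Benjamini-Hochberg adjusted), 1 of the 316 precursors passed an adjusted p of 0.05, or 0.316 percent, and it was lower in Q92. At an unadjusted p under 0.05 there were 26 precursors (8.23 percent), of which 17 were lower (5.38 percent) and 9 higher (2.85 percent). The median log2 difference over the 316 was 0.01, with 162 values above 0 and 154 below. For no precursor were all Q92 livers outside the range of the control livers (0 percent). The balance of directions moved with the scaling. With scaling by the total count alone, 22 were higher and 5 lower, with DESeq2 11 and 13, and with its size factors in the edgeR fit 11 and 14. Most differences were small. For 264 of the 316 the log2 difference lay within 0.35 of 0, and Mir10b was the only precursor at 100 CPM or more that lay beyond 1.

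**Figure D1:**
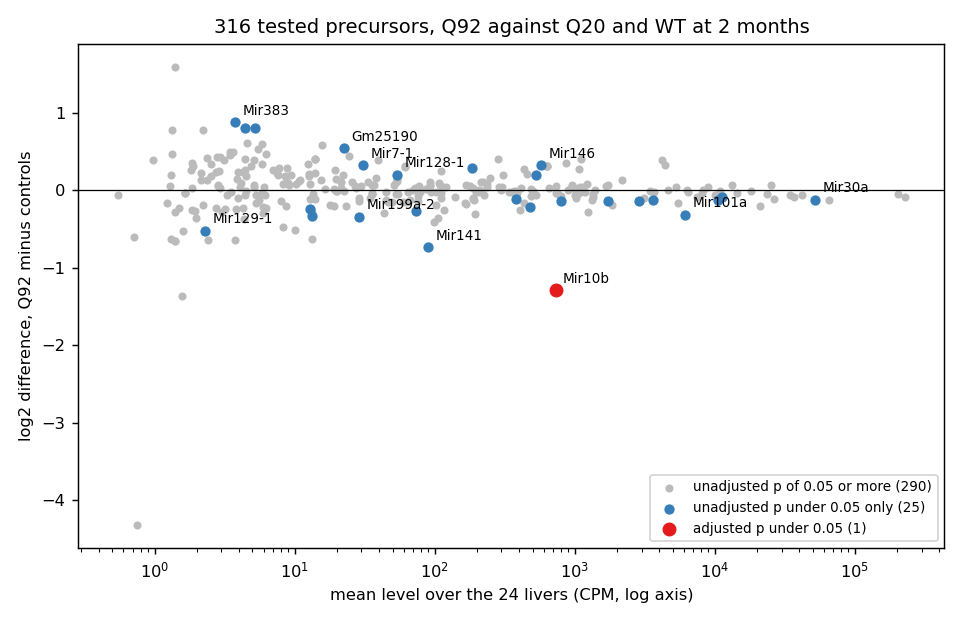
Log2 difference between Q92 and control livers at 2 months (y axis) against the mean level over the 24 livers (x axis, CPM on a log axis) for the 316 tested precursors, each point 1 precursor. Mir10b (red) lies at -1.29 among precursors of 100 CPM or more that are otherwise close to 0, and the wide scatter at the left belongs to precursors of few counts.

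Mir10b (ENSMUST00000083566) lies at chr2:74726070-74726137 on the plus strand of GRCm38, in introns of Hoxd3 and Hoxd4 on the same strand. In the 8 Q92 livers it ranged from 184 CPM through a median of 433 to 621 CPM. The 8 Q20 livers ran from 425 CPM through a median of 771 to 1295 CPM. In the 8 WT livers the lowest was 472, the median 764 and the highest 2214 CPM. All 8 Q92 livers were below the control median and 3 were below every control liver, while the other 5 overlapped the lower controls. The mean was 382 ± 157 CPM (SD, n = 8) for Q92, against 907 ± 477 CPM (SD, n = 16) for controls. These levels rest on 620 to 1791 counts per liver in Q92, 1349 to 4819 in Q20 and 898 to 6983 in WT, all of them whole numbers. The log2 difference was -1.29 ± 0.27 (SE), with an adjusted p of 0.0298 by edgeR's quasi-likelihood test. A two-sided exact permutation test of the mean log2 CPM within sex found a difference at least as far from 0 in 23 of 245025 arrangements (p = 9.39e-05). This test was added after Mir10b had been called, on the same livers and for Mir10b alone. Its p is unadjusted and takes no account of lane, so it is not separate support for the call.

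The spread of Mir10b within groups was wide. The 2 highest livers were the WT females F3 (2214 CPM) and F4 (1649 CPM), and without both the log2 difference was -1.13 (adjusted p = 0.0333, edgeR's quasi-likelihood F-test, Benjamini-Hochberg adjusted). The 3 lowest were the Q92 livers M1 (184 CPM), M3 (209.5 CPM) and F3 (228 CPM). These 3 also had the lowest summed level of the red cell microRNAs among Q92 livers, at 3317, 4022 and 4267 CPM. The other Q92 livers lay between 6101 and 11983 CPM and the controls between 3010 and 7086 CPM. In controls the 2 lowest sums, in WT M3 (3010 CPM) and WT F4 (3052 CPM), went with Mir10b at 1171 and 1649 CPM, above the control median. The part of blood content in the Mir10b values was not tested. In these bulk samples, fewer cells of a type and less RNA per cell cannot be told apart.

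Both sexes and every lane with more than 1 Q92 liver had the same direction for Mir10b. Females ranged from 228 to 621 CPM in Q92, against 704 to 1295 CPM in Q20 and 492 to 2214 CPM in WT. Males ranged from 184 to 455 CPM in Q92, against 425 to 902 CPM in Q20 and 472 to 1171 CPM in WT. Thus female Q92 livers overlapped WT females only, and male Q92 livers overlapped Q20 males only. In lane L5 the 3 Q92 livers (209.5 to 492 CPM) lay below the 3 Q20 livers (656 to 1295 CPM). In lane L4 the 4 Q92 livers spanned 184 to 455 CPM and the 10 controls 425 to 2214 CPM. The single Q92 liver in lane L3, F1 at 621 CPM, lay within the range of its 3 controls (472 to 842 CPM). Fitted within lane, the log2 difference was -1.55 ± 0.42 (SE) in L4 and -1.30 ± 0.30 (SE) in L5, with adjusted p of 0.417 and 0.319 by edgeR's quasi-likelihood test.

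The call of Mir10b was lost with either control group alone, while the size of its log2 difference varied less. Either group alone also leaves fewer control livers in the fit. These fits therefore cannot tell a change of controls from a loss of livers. The SE of the log2 difference was 0.25 against Q20 alone and 0.39 against WT alone, compared with 0.27 against both. Against Q20 livers alone the log2 difference was -1.16 (adjusted p = 0.114), against WT livers alone -1.43 (adjusted p = 0.64), and with total-count scaling -1.23 (adjusted p = 0.0651), all by edgeR's quasi-likelihood F-test, Benjamini-Hochberg adjusted. Leaving out any 1 of 10 libraries (Q92 F2, F3, F4, M1 and M3, Q20 F4, M3 and M4, and WT M2 and M3) ended the call, with adjusted p between 0.0519 and 0.093, while the log2 difference over all 24 omissions stayed between -1.46 and -1.16.

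**Figure D2:**
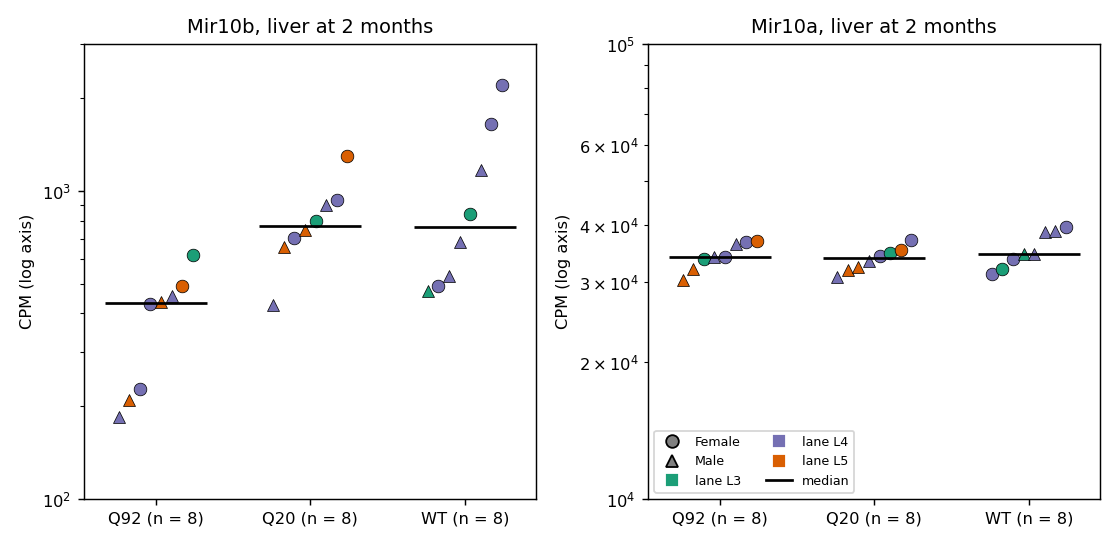
Levels of Mir10b (left) and Mir10a (right) in each liver at 2 months (y axes, CPM on log axes that start and end at different levels), by genotype, with sex as the symbol, lane as the colour and the median as a line. The 8 Q92 livers lie between 184 and 621 CPM for Mir10b, below the control median of 771 CPM, while the Mir10a ranges of all groups overlap.

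Mir10a, encoded in the HoxB cluster, was the most abundant member of the family and did not differ in the same way. It spanned 30281 to 36953 CPM in Q92, 30811 to 37053 CPM in Q20 and 31267 to 39615 CPM in WT livers. The 3 ranges overlapped, with the highest values in WT. Its log2 difference was -0.06 (95% interval -0.16 to 0.04). As a percentage of the Mir10a count of the same liver, Mir10b came to 0.544 to 1.84% in Q92, 1.28 to 3.67% in Q20 and 1.37 to 7.08% in WT livers. This ratio within a liver does not depend on the scaling of the libraries, and it tended to be lower in Q92 as the level did, with overlapping ranges. It was not tested and reuses the Mir10b values of the call, so it is not separate support for it.

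All 5 members of the miR-10 and miR-100 family were tested and had values below 0 (4 of 5 with total-count scaling, where Mir100 was above). Their median was -0.11 against 0.01 over all precursors tested, but Mir10b was the only one called. Mir99b ranged from 647 to 895 CPM in Q92 and from 667 to 944 CPM in controls, with a log2 difference of -0.14 (unadjusted p = 0.0156). Mir99a ranged from 283 to 486 CPM and from 318 to 511 CPM, with a log2 difference of -0.11 (unadjusted p = 0.031). Mir100, a member with fractional counts in most livers, had a log2 difference of -0.02 (95% interval -0.15 to 0.10), and its sign changed under several settings. None of these 3 reached an adjusted p of 0.05. Of the 6 microRNAs encoded in Hox clusters, Mir10a and Mir10b were the only ones with enough counts to test. Mir196a-1 and Mir196a-2 were at 0 in all 24 livers, Mir196b reached at most 1.33 CPM and Mir615 at most 3.18 CPM, so no difference in them was detectable at this depth.

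**Figure D3:**
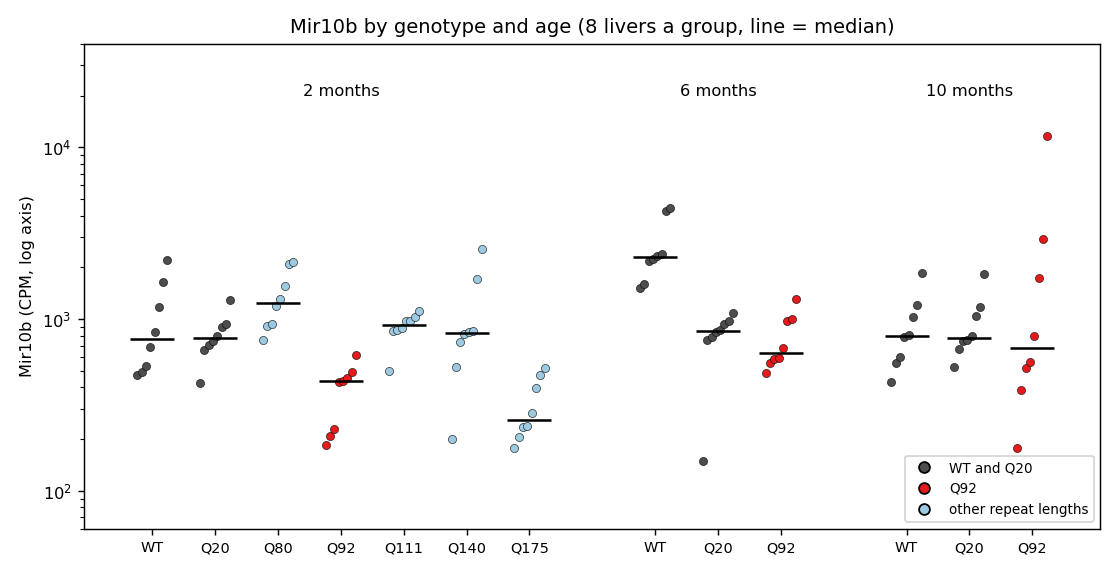
Mir10b level in each liver (y axis, CPM on a log axis) by genotype at 2 months and, for WT, Q20 and Q92, at 6 and 10 months, with the group median as a line. At 2 months the Q92 median is 433 CPM and the Q175 median 259.8 CPM, below those of the other genotypes, at 6 months the Q92 and Q20 livers overlap, and at 10 months Q92 livers spread from 178 to 11710 CPM on both sides of the Q20 range.

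The other repeat lengths at 2 months had no common direction for Mir10b. The medians were 1247 CPM in Q80 (756 to 2144 CPM), 925 CPM in Q111 (496 to 1120 CPM) and 832 CPM in Q140 (201 to 2557 CPM). In Q175 the median was 259.8 CPM and the range 177 to 518 CPM. All 8 Q175 livers lay below the control median and 6 below every control liver, against 1 of 8, 1 of 8 and 3 of 8 below the median in Q80, Q111 and Q140. These groups are set beside the same 16 controls as Q92, so the comparisons are not independent of each other, and no test between the lines was made.

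At later ages the Q92 livers were not set apart in the same way. At 6 months Mir10b ranged from 483 CPM through a median of 635 to 1316 CPM in Q92 and from 149.8 CPM through 857 to 1088 CPM in Q20. WT livers of that age, whose library names follow another numbering, ranged from 1516 to 4418 CPM. At 10 months the values were 178, 679 and 11710 CPM for the lowest, median and highest Q92 liver, 523, 778 and 1827 CPM for Q20 and 431, 798 and 1856 CPM for WT. The Q92 values at 10 months thus spread on both sides of the control range. No test was made at these ages.

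The microRNAs that dominate the liver were at similar levels in both groups, and none passed the test. Mir192, the most abundant precursor, ranged from 201430 to 243670 CPM in Q92 and from 207837 to 252424 CPM in controls, a log2 difference of -0.08 (95% interval -0.17 to 0.01). For Mir22 the values were 188203 to 226298 CPM and 179405 to 226459 CPM, a log2 difference of -0.04 (95% interval -0.15 to 0.06). For Mir148a the log2 difference was -0.13 (95% interval -0.26 to 0.0029) and for Mir26a-2, whose counts were fractional in every liver, it was -0.06 (95% interval -0.13 to 0.02). The groups overlapped almost completely in all 4. Mir122, which defines hepatocytes and supports cholesterol synthesis, was present at 20584 to 35867 CPM over the 24 livers, as the labelled tissue requires, and its log2 difference was 0.07 (unadjusted p = 0.307). Of 8 hepatocyte microRNAs, 0 were called, 1 had an unadjusted p under 0.05, and the median log2 difference was -0.08. Over all 316 tested precursors, 0.316 percent were called and 8.23 percent had an unadjusted p under 0.05. The counts in so short a list therefore say little about its members.

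That 1 was Mir101a, which had the second smallest p of the comparison. It ranged from 4710 CPM through a median of 5339 to 6550 CPM in Q92 and from 5087 CPM through 6374 to 8420 CPM in controls, and 7 of 8 Q92 livers were below the control median. The log2 difference was -0.31 ± 0.08 (SE), with an unadjusted p of 0.000796 and an adjusted p of 0.126 by edgeR's quasi-likelihood test. Its counts were fractional in all 24 livers. Mir101b, the paralogue, had a log2 difference of -0.09 (unadjusted p = 0.266). DESeq2 called Mir101a beside Mir10b, with an adjusted p of 0.0443.

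MicroRNAs with described roles in hepatic lipid and glucose metabolism did not pass the test. None of the 13 tested members was called, and the median was -0.02. Of all 316 tested precursors 0.316 percent were called, and 0 calls here and in the next lists is near that share. They include Mir33, which sits in the Srebf2 gene and restrains cholesterol efflux (-0.01), Mir34a, a p53 target that represses Sirt1 (0.11), and Mir103-2 and Mir107, which limit insulin sensitivity through caveolin (0.05 and 0.07). Mir103-1, which shares the seed of Mir103-2 and Mir107, was at -0.18. Mir130a was the only member with an unadjusted p under 0.05, at 1541 to 1849 CPM in Q92 and 1418 to 2177 CPM in controls, with a log2 difference of -0.14. The let-7 family, which represses growth and RAS genes, held 10 tested members with a median of 0.01 and 0 calls. Its only member with a small unadjusted p was Mirlet7a-2 (log2 difference 0.20), whose counts were fractional in every liver. The 12 tested members of the miR-17/92 cluster and its paralogues, which drive proliferation, had a median of 0.05 and 0 calls.

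The 25 precursors with an unadjusted p under 0.05 that were not called are described by their values. In 19 of them the log2 difference was under 0.35 in size. The other 6 were beyond 0.5, and 4 of those averaged under 10 CPM. Mir383, encoded in an intron of Sgcz, ranged from 1.93 to 10.9 CPM in Q92 and from 0.293 to 7.12 CPM in controls, on at most 35 counts per liver, with a log2 difference of 0.88. Gm22133, within an exon of the ferritin light chain gene Ftl1, had 2.21 to 13.8 CPM in Q92 and 0.920 to 6.50 CPM in controls (log2 difference 0.81). Mir1961, in an intron of Shroom3 on the opposite strand, had 2.64 to 10.9 CPM and 1.07 to 7.88 CPM (log2 difference 0.80). In all 3 the Q92 range reached higher, but at least 1 Q92 liver lay below the control median. Gm25190, in an intron of Cnot2, ranged from 10.8 to 56.1 CPM in Q92 and 11.4 to 25.9 CPM in controls, with a log2 difference of 0.54 and 6 of 8 Q92 livers above the control median. Mir129-1 averaged 1.83 CPM in Q92 and 2.54 CPM in controls, a log2 difference of -0.52 resting on very few counts. Adjusted p for these 5 was 0.222 to 0.544 by edgeR's quasi-likelihood test.

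Among better covered precursors, Mir7-1, in an intron of Hnrnpk, ranged from 26.0 to 47.4 CPM in Q92 and from 20.3 to 35.4 CPM in controls (log2 difference 0.32). Mir31 ranged from 339 to 607 CPM and from 408 to 668 CPM (log2 difference -0.22). Mir301, in an intron of Ska2, ranged from 60.9 to 72.2 CPM in Q92 and from 57.9 to 99.5 CPM in controls (log2 difference -0.27). All 8 Q92 livers were below the control median for Mir301, and 7 of 8 were for Mir31, while 7 of 8 were above it for Mir7-1. Mir128-1, expressed most strongly in neurons, ranged from 47.4 to 77.1 CPM in Q92 and from 38.7 to 71.9 CPM in controls (log2 difference 0.21), and Mir324 from 8.61 to 15.9 CPM and from 8.51 to 18.6 CPM (log2 difference -0.33). Each of these 5 had an adjusted p between 0.222 and 0.314 by edgeR's quasi-likelihood test and none is a call. Mir30a, the fourth most abundant precursor, had a log2 difference of -0.12 with an unadjusted p of 0.0059 while the mean CPM of the groups, 51198 ± 3277 (SD, n = 8) and 52561 ± 3222 (SD, n = 16), differed by less than 1 SD. The range over settings was -0.15 to -0.06.

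**Figure D4:**
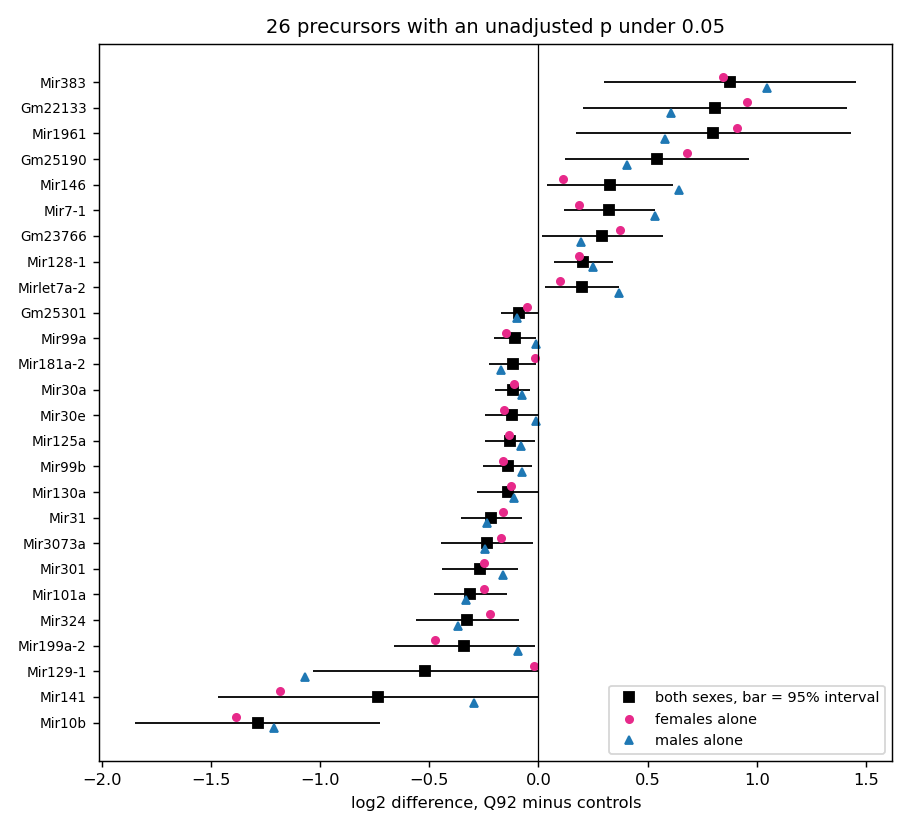
Log2 difference between Q92 and control livers (x axis) of the 26 precursors with an unadjusted p under 0.05, with the 95% interval over both sexes (black squares and bars) and the separate fits of females (circles) and males (triangles). All 26 have the same sign in both sexes, which the choice by p favours, and Mir10b at the foot is the only one called.

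The contrast did not differ detectably between the sexes. In a test of the interaction, 0 of 316 precursors were called (0 percent) and 12 had an unadjusted p under 0.05 (3.8 percent). With 4 Q92 and 8 control livers a sex, 0 precursors were called in females (23 at an unadjusted p under 0.05) and 0 in males (19) by edgeR's quasi-likelihood test. Mir10b had a log2 difference of -1.39 in females and -1.21 in males, and the interaction was 0.17 ± 0.52 (SE). DESeq2 called 2 precursors in males, Mir146 and Mir10b, and 0 in females. Mir146, which dampens inflammatory signalling downstream of NF-kB, ranged from 386 to 869 CPM in Q92 and 249 to 843 CPM in controls. Its log2 difference was 0.33 over both sexes, 0.64 in males and 0.11 in females, and the unadjusted p of the interaction was 0.147. In both sexes the Q92 and control ranges of Mir146 overlapped. Males ran from 386 to 869 CPM in Q92, 249 to 565 CPM in Q20 and 497 to 691 CPM in WT. The male control range was widened downward by 3 Q20 livers at 249 to 330.2 CPM.

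Of the 316 tested precursors, 228 had a mature sequence in RefSeq, and 20 seeds were shared by at least 3 of them. All 4 such members with the seed of miR-30a-5p had values below 0 (median -0.09), 2 of them above 0 with total-count scaling, and Mir30a and Mir30e had an unadjusted p under 0.05. All 3 with the seed of miR-99a-5p were below 0 (median -0.11), again with Mir100 above 0 under total-count scaling, with Mir99a and Mir99b under 0.05. Of those with the seed of miR-130a-3p, Mir130a and Mir301 were below 0 and Mir130b above, with a median of -0.14. Differences in these 3 families were small, at most 0.27 in size for a member with an unadjusted p under 0.05, and no member was called. A further 3 sets lay wholly below 0. They were Mir200b, Mir200c and Mir429 (median -0.35), Mir199a-1, Mir199a-2 and Mir199b (-0.12), and Mir1928, Mir221 and Mir222 (-0.03). The widest member of any family was Mir1961 (0.80), which shares the let-7 seed, while the other 9 matched members lay within 0.08 of 0. Mirlet7a-2 (0.20), of the let-7 family, was not among the matched members.

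**Figure D5:**
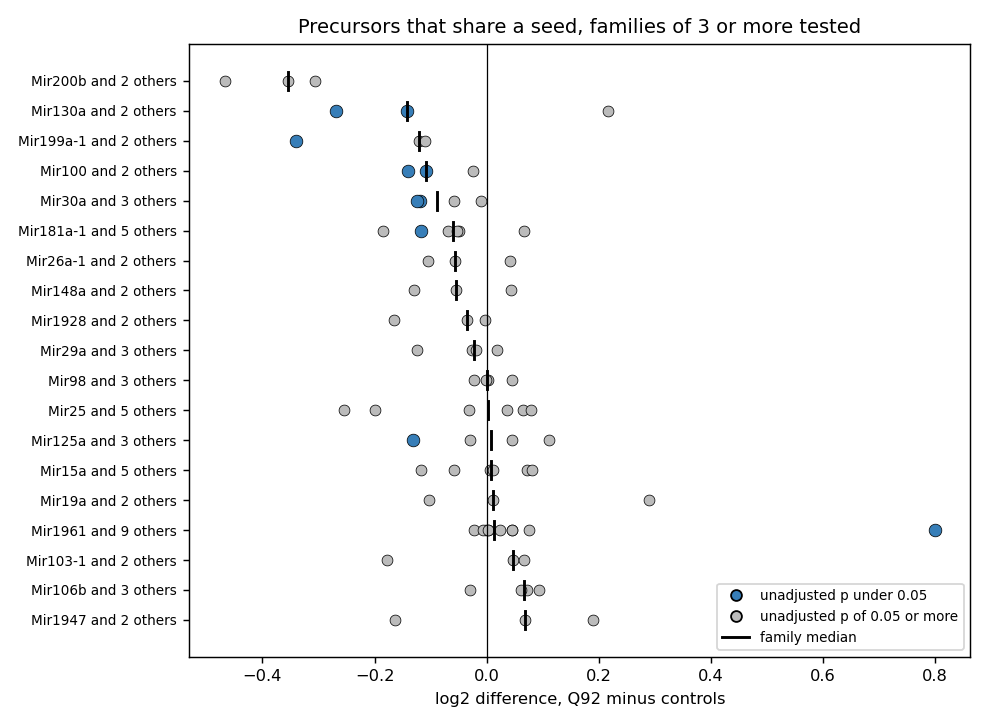
Log2 difference between Q92 and control livers (x axis) of the members of 19 sets of at least 3 tested precursors that share a seed, 1 line per set named by its first member, with the set median as a bar. The Mir200b, Mir199a-1, Mir100, Mir30a and Mir1928 sets lie wholly below 0. With total-count scaling the Mir30a and Mir100 sets do not. Mir1961 at 0.80 stands away from its set.

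By position, 131 of the 284 tested precursors with coordinates fell in 47 clusters, taken as neighbours at most 200 kb apart. The 26 precursors with an unadjusted p under 0.05 lay at 25 separate loci. Only the cluster of Mir99b and Mir125a, in Spaca6 at chr17:17830188-17830879 on the plus strand, held 2 of them. Mir125a ranged from 2274 to 3231 CPM in Q92 and from 2439 to 3566 CPM in controls, with a log2 difference of -0.13 (unadjusted p = 0.028). Mir99b and Mir125a are made from 1 transcript, and their differences of -0.14 and -0.13 were alike.

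MicroRNAs that mark other cell types were present at levels that overlapped between groups, and no member of these lists was called. Of all 316 tested precursors, 0.316 percent were called. The 3 red cell microRNAs (Mir144, Mir451a and Mir486) had a median of 0.28, and their summed level was 3317 to 11983 CPM in Q92 against 3010 to 7086 CPM in controls, with 5 of the 8 Q92 livers at 6101 CPM or above. Mir451a alone ranged from 609 through 1338 to 1812 CPM in Q92 and from 695 through 948 to 1655 CPM in controls, a log2 difference of 0.28 (95% interval -0.06 to 0.62). The 10 leukocyte and Kupffer cell members had a median of 0.10, with sums of 4269 to 6520 CPM and 4375 to 6216 CPM. For endothelium, Mir126a had a log2 difference of -0.11 (95% interval -0.22 to 0.01). The 6 mesenchymal members had a median of -0.14. Mir199a-2, which stellate cells express, was at 12.7 to 33.3 CPM in Q92 and 19.2 to 39.8 CPM in controls. Its counts were in part fractional, and its unadjusted p was 0.0399 by edgeR's quasi-likelihood F-test. The far more abundant Mir199a-1, at a mean of 1338 CPM, had a log2 difference of -0.12 (unadjusted p = 0.0884, same test). The 9 tested neuronal members had a median of 0.18, with sums of at most 224 CPM in Q92 and 199 CPM in controls. The 2 tested pancreas and gut members, Mir802 and Mir215, had a median of -0.17. Mir216a, Mir216b and Mir217 of the same list averaged 0.039, 0.064 and 0.074 CPM and were not tested.

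Some epithelial and muscle microRNAs were highest in the same 2 control livers. The 11 epithelial members had a median of -0.31, with 9 below 0, and their summed level was 2423 to 5300 CPM in Q92 and 2875 to 4850 CPM in controls. Mir141, of the miR-200 family that maintains epithelia, ranged from 34.6 through 60.4 to 65.7 CPM in Q92. In controls it ranged from 44.8 through 68.3 to 498 CPM, and the highest were the livers WT F3 (498 CPM) and Q20 F1 (245 CPM), with all others at 95.3 CPM or below. The striated muscle precursor Mir133a-1 was highest in the same libraries, at 65.9 CPM in WT F3 and 55.1 CPM in Q20 F1, followed by the Q92 liver M2 at 40.6 CPM, while Mir133b was at 0 in all 24 livers. With all livers the log2 difference of Mir141 was -0.73 (unadjusted p = 0.0499). Without WT F3 and Q20 F1 it was -0.30 (unadjusted p = 0.0149). Neither value passed adjustment. Mir10b without these 2 livers had a log2 difference of -1.22 and an adjusted p of 0.0439 by edgeR's quasi-likelihood test, and was again the only call.

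The precision differed greatly with the level. For the 128 precursors at 100 CPM or more, the 95% interval of the log2 difference had a median half-width of 0.143, and for 127 of them it lay within 1 on either side of 0. At 10 to 100 CPM (85 precursors) the median half-width was 0.271. Under 10 CPM (103 precursors) it was 0.633, and the interval lay within 1 of 0 for 55 of them. For the other precursors under 10 CPM the interval reached past 1.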

How the data were processed

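Small RNA of mouse livers was sequenced by the authors as strand-specific single-end reads, which were clipped, aligned to mm10 with STAR and counted with HTSeq. The values the authors deposited are an estimated count per precursor, in part fractional, made from these alignments, and the FPKM of the same precursors. The submitters' processing notes name CASAVA 1.8.2. Clipping settings, the annotation and the origin of fractional counts are not given in the sources used here. Reads carry no molecular identifiers. Whole counts had been assumed, so the estimated counts were rounded to whole numbers before testing. Precursors were placed with GENCODE M21, and 1228 of 1626 matched. Members, lists and tests were chosen with earlier results of these data known. 24 livers, 1.69 to 4.62 M counts each, entered the comparison.

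Tests used edgeR 4.0.16 (quasi-likelihood F-test) in R 4.3.3 (TMM factors, sex and lane as covariates, Benjamini-Hochberg adjustment over 316 precursors with at least 10 counts in at least 7 of the 56 livers of 2 months). An adjusted p under 0.05 is a call. The SE is the log2 difference over the square root of F. Alternatives were DESeq2 1.42.0, limma 3.58.1 on log2(FPKM + 1), other scalings, filters, controls, lanes and the omission of each liver. Files were read with data.table (version 1.17.8), and the fit was tested on simulated data. Named precursors were those called, the 15 with the smallest p, the 5 highest and 5 lowest log2 differences at an unadjusted p under 0.05, the 5 most abundant, and from each list the most abundant member and that with the smallest p, with all of the Hox and miR-10 lists. Others in the text were named after their values were seen. Clusters are precursors at most 200 kb apart.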

Additional observations from a re-analysis of the deposited data

Results flagged for a closer look

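In 109 groups of 8 livers, 10 values stood far from the other livers of their group by Dixon's gap criterion. For values with a normal spread, chance alone meets it in about 1 of 20 groups. The values were used without a log and the groups share livers, so the count of 10 cannot be set against that rate. In the Q92 livers at 2 months the only such value was Mir133a-1 in M2, at 40.6 CPM. In controls of that age they were Mir133a-1 in Q20 F1 (55.1 CPM) and WT F3 (65.9 CPM), Mir141 in Q20 F1 (245 CPM) and WT F3 (498 CPM), Mir128-1 in Q20 F1 (71.9 CPM) and Mir451a in WT M2 (1655 CPM). Q20 F1 and WT F3 were thus high in both an epithelial and a muscle microRNA.

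For Mir10b the values were 11710 CPM in the Q92 female F4 at 10 months, 149.8 CPM in the Q20 male M3 at 6 months and 496 CPM in the Q111 female F2 at 2 months. None of these 3 livers entered the comparison at 2 months.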

How the results depend on the processing

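The count of calls was 1, and 0 with total-count scaling, Q20 alone, WT alone, lane L5 alone or the replicate block, 2 with DESeq2 (Mir10b and Mir101a) and 20 of 1074 precursors without a filter (14 higher, 6 lower). Leaving out 1 liver gave 0 to 1. In lane L4 the 1 call was another precursor, ENSMUST00000176833. By sex, 15 were called without a filter (5 higher, 10 lower) and 0 otherwise. DESeq2 called 2 in males. In the replicate block Mir10b was at -1.15 (adjusted p = 0.134). Deviations of livers with the same number correlated at -0.32 to 0.45 over 24 pairs (median 0.03), against a median of -0.04 over 72 pairs with different numbers. Between Q20 and Q92 the median was 0.20, with 7 of 8 pairs over 0.1 and 1 at -0.30. All 8 of these pairs shared a lane, and the labels tie no numbers together. Whether the numbers pair the livers is therefore not settled. Mir10b kept its sign in all settings, from -1.55 to -1.13, with adjusted p from 1.66e-36 without a filter to 0.64, both by edgeR's quasi-likelihood test. Without a filter its log2 difference was nearly the same (-1.28 against -1.29), but the SE fell from 0.27 to 0.094. The small p there thus came with a changed error estimate, not a larger difference.

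Small differences changed sign. With the total count alone, Mir22 was 0.015, Mir26a-2 0.00095 and Mir100 0.032. With limma they were 0.017, 0.00096 and 0.032. In lane L4, Mir26a-2 was 0.0078, Mir100 0.050 and Mir126a 0.0052, and in lane L5 Mir92-2 was -0.016. Mir100 was 0.0010 with all genotypes in 1 fit, 0.020 against WT alone, and -0.045 to 0.014 when 1 liver was left out. Mir133a-1 without 1 liver ranged from -0.45 to 0.64. The causes were not tested. Leaving out the 2 highest controls, or Q20 F1 and WT F3, was chosen after seeing the data, as was the permutation test of Mir10b. Under 10 CPM the median 95% half-width of 0.633 limits what could be detected.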

Other observations

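The imprinted microRNA cluster between Dlk1 and Dio3, at chr12:109585789-109743795 in GRCm38, is expressed from the maternal chromosome and is strong in embryonic and neural tissue. It was looked at after its values were seen. All 14 of its tested precursors had a log2 difference above 0 in Q92 livers, from 0.03 to 0.79 with a median of 0.22, and 0 of them had an unadjusted p under 0.05. Mean levels ran from 1.31 CPM (Mir337) to 216 CPM (Mir127). For Mir541 the means were 47.3 CPM in Q92 and 35.2 CPM in controls, for Mir434 63.7 and 49.3 CPM, and for Mir127 239.8 and 204 CPM. In females alone 13 of the 14 were above 0, and in males alone 6. The members come from 1 region and are not independent of each other, and no test over them was made.

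The precursor ENSMUST00000175213, also named after its values were seen, reached 9.24 CPM in a control liver and at most 0.000381 CPM in Q92 livers. Its unadjusted p was 0.0529 by edgeR's quasi-likelihood F-test. At these library totals the Q92 level is far below a single count, and the other control values are not described. These maxima alone do not show that the precursor was lost in Q92.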
